A study of Mus musculus with 6 samples.

Results

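The 10 genes described here encode surface proteins by which developing T cells are staged: Cd4, Cd8a, Cd8b1, Cd5, Cd44, Kit, Cd24a, Cd69, Cd28 and Thy1. They were taken as a named list, with no value in the rule but with earlier results of these data known, and each is read by 1 probe set of the 22414 in the deposited table. In that order the probe sets are ENSMUSG00000023274_at, ENSMUSG00000053977_at, ENSMUSG00000053044_at, ENSMUSG00000024669_at, ENSMUSG00000005087_at, ENSMUSG00000005672_at, ENSMUSG00000047139_at, ENSMUSG00000030156_at, ENSMUSG00000026012_at and ENSMUSG00000032011_at. All 10 passed the floor on low levels, a log2 level of 5.54 on at least 1 array, as did 12150 genes in all.

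T-cell progenitors enter the thymus without CD4 or CD8 and carry CD44 and KIT, the receptor for stem cell factor. Notch1 signalling commits them to the T lineage and sustains them until a rearranged T-cell receptor β chain has passed its checkpoint. After that checkpoint thymocytes switch on both coreceptors, CD4 and the CD8αβ heterodimer, and lower Notch activity. CD5 and CD69 follow antigen-receptor signals, CD28 is a costimulator, CD24 marks immature thymocytes and Thy1 marks the lineage throughout.

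The samples were Beko cells, a mouse T-lineage leukaemia line, on 6 Affymetrix arrays with 1 array per condition. For 24 h, parental cells were given 10 μM DAPT, which inhibits γ-secretase and so the release of active Notch, or DMSO. Cells infected with a DNMAML-ER fusion, a dominant-negative Mastermind that blocks Notch-dependent transcription, received hydroxytamoxifen (OHT) at 0.75 μg/mL, or ethanol, for 48 h. Cells infected with a Notch1-ER fusion received OHT at the same concentration, or ethanol, for the same time. The ER part is an oestrogen receptor domain through which OHT activates the fusion protein. The infected cells had been through selection. The labels name no clone and no replicate culture, so a difference within a pair has neither a replicate error nor a test. Fewer cells of a stage and less RNA per cell cannot be told apart in such bulk samples.

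The arrays were alike in overall level, with medians of 5.43 to 5.61. The table pairs no other ID with a symbol, and 0 of its IDs matched an Ensembl ID in the RefSeq gene table, so Notch targets, fusion levels and markers of other cell types were not analysed here. The T-lineage label could thus be set only against these genes. Thy1, Cd4, Cd8a and Cd8b1 were above the floor on all 6 arrays. Cd5 was near the floor, at 5.48 with DMSO and at most 5.97, and reached it on 5 arrays. The floor is only the median of the mean levels, so a level above it is a weak check of the label.

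On the arrays of both inhibitors the coreceptor, Kit and Cd69 levels were at least 1.5-fold above vehicle, and with Notch1-ER those of Cd28 and Cd24a were. The groups were not exclusive: Cd28 was also higher with DAPT (0.51) and DNMAML-ER (0.49), and Cd69 (0.54) and Kit (0.31) were also higher with Notch1-ER. Differences are treated minus vehicle on the log2 scale, so that 1 is a 2-fold difference. At 2-fold, 3 of the 10 genes were higher with DAPT (Cd8b1, Kit and Cd69), against 1.05% of all genes above the floor. With DNMAML-ER 2 were (Cd8b1 and Cd69), against 0.51% of all genes. With Notch1-ER 1 was (Cd28), against 0.379%. None of the 10 was 2-fold lower in any pair, but few of all genes were. Of the 12150 genes, 198, 96 and 64 were 2-fold higher or lower with DAPT, DNMAML-ER and Notch1-ER. Of these, 128, 62 and 46 were higher. The absence of a lower gene among 10 thus says nothing about the list. Cd69 was below the floor on the DMSO and DNMAML-ER ethanol arrays. Among genes at or above the floor on both arrays of a pair, 2 of 8 on the list were 2-fold higher with DAPT, against 0.727% of all such genes. With DNMAML-ER it was 1 of 9, against 0.363%.

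At 1.5-fold the count was 5 of 10 with DAPT, where 5.12% of all genes were that much higher. It was also 5 of 10 with DNMAML-ER, where the background was 2.41%, and 2 of 10 with Notch1-ER, where it was 1.51%. The 5 genes were the same under both inhibitors, namely Cd4, Cd8a, Cd8b1, Kit and Cd69, and 1.35% of all genes were 1.5-fold higher in both of those pairs. Without Cd69 and Cd5, which were below the floor on a vehicle array of these pairs, it was 4 of 8, against 1.23% of all genes above the floor on the same 4 arrays. All 5 were under 1.5-fold either way with Notch1-ER, a pattern held by 1.14% of all genes. It was also held by 138 of the 164 genes that were 1.5-fold higher in both inhibitor pairs, so it does not set these 5 apart. The median difference of the 10 genes was 0.66 with DAPT, 0.64 with DNMAML-ER and 0.31 with Notch1-ER, beside medians over all genes of 0.02, 0.01 and -0.01.

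**Figure D1:**
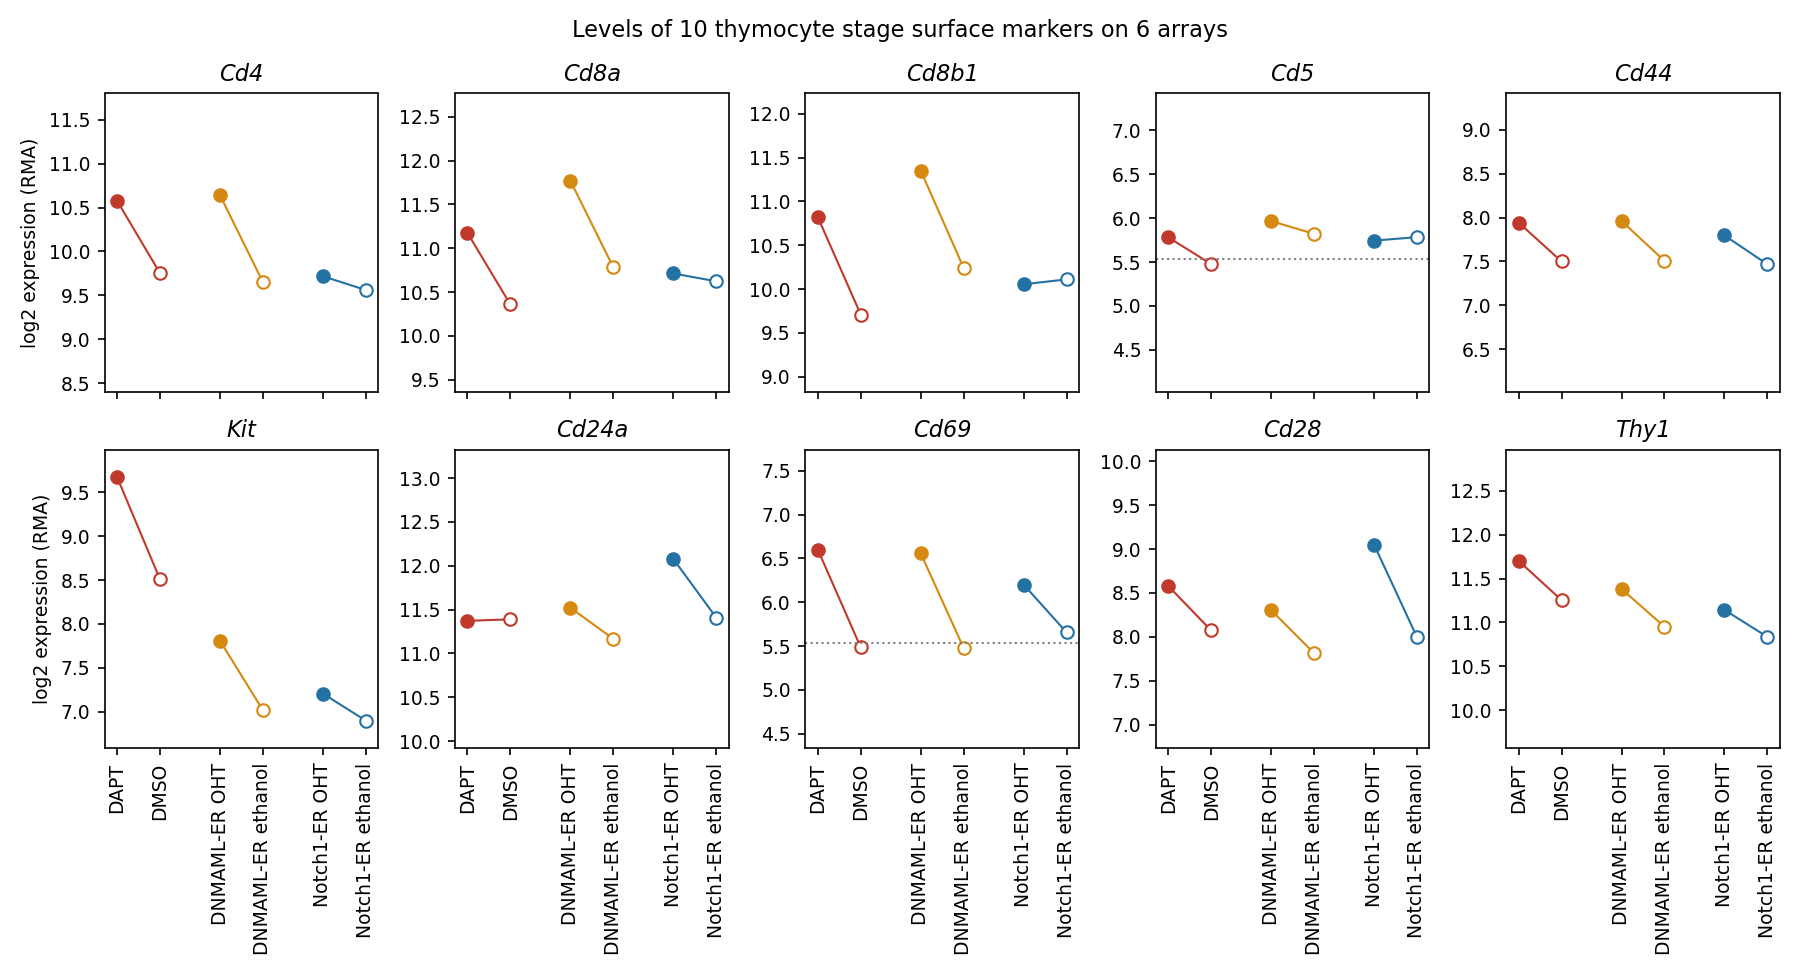
Log2 expression (RMA) of each gene on the 6 arrays, with 1 array per point; filled points are treated arrays, open points vehicle arrays, and a line joins the 2 arrays of a pair. All panels span the same log2 distance, and the dotted line is the floor of 5.54, which falls within the Cd5 and Cd69 panels only. Cd4, Cd8a and Cd8b1 stand high on the DAPT and DNMAML-ER OHT arrays, and Kit is set apart by line.

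Cd4 and the 2 chains of CD8 were about 2-fold higher, or little less, under both inhibitors and near their vehicle levels with Notch1-ER. CD4 and CD8 hold the T-cell receptor on MHC class II and class I molecules and bring the kinase Lck to it. Cd4 had a level of 10.58 with DAPT and 9.75 with DMSO. It had 10.64 with OHT and 9.65 with ethanol in the DNMAML-ER line, and 9.72 with OHT and 9.56 with ethanol in the Notch1-ER line. The arrays of the 2 inhibitor treatments were thus the highest of the 6, and the other 4 lay within a narrow band below them. The differences were 0.82 with DAPT and 0.99 with DNMAML-ER, just under 2-fold, and 0.16 with Notch1-ER.

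Cd8a, which encodes the chain found in both forms of CD8, had a level of 11.17 with DAPT and 10.36 with DMSO. In the DNMAML-ER line it had 11.77 with OHT and 10.78 with ethanol, and in the Notch1-ER line 10.71 with OHT and 10.62 with ethanol. The DNMAML-ER OHT array was the highest and the DMSO array the lowest. The differences were 0.82, 0.99 and 0.09, close to those of Cd4 in each pair.

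Cd8b1, the β chain of the thymic coreceptor, gave the widest contrast between the inhibitors and Notch1-ER. Its level was 10.82 with DAPT and 9.71 with DMSO, and 11.35 with OHT and 10.24 with ethanol in the DNMAML-ER line. In the Notch1-ER line it was 10.06 with OHT and 10.11 with ethanol. The DAPT and DNMAML-ER differences were 2.16-fold each, and 93 and 46 of the 12150 genes, Cd8b1 included, were at least as much higher. The Notch1-ER difference was -0.06, and 76.4% of all genes differed at least that far from 0 in that pair.

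Cd8a and Cd8b1 lie next to each other on chromosome 6 of the RefSeq gene table, with 0 protein-coding genes between them. The RefSeq promoter table (GRCm38.p6) lists 4 of the 10 genes: Cd8a, Kit, Cd44 and Cd5. The 250 bases before the start are shown for Cd8a and Kit, the listed genes that were 1.5-fold higher under both inhibitors. Capitals mark matches, on either strand, to TGGGAA (the core bound by CSL, the DNA-binding partner of Notch), TGTGGT (a RUNX core) and CANNTG (an E-box, bound by E proteins). The Cd8a stretch is chr6:71373177-71373426 on the plus strand and the Kit stretch is chr5:75574737-75574986 on the plus strand.
Cd8a: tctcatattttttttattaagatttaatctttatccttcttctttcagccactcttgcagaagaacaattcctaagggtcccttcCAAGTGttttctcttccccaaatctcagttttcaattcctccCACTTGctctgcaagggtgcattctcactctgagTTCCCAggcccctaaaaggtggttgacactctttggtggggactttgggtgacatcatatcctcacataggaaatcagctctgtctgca
Kit: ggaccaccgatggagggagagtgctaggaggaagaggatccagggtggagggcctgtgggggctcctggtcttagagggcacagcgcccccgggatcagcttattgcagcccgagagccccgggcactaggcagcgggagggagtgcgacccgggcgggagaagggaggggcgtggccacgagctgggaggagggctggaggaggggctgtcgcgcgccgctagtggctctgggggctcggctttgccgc
The Cd8a stretch held 1 match to the CSL core, 0 to the RUNX core and 2 to the E-box, none of them overlapping, and the Kit stretch held 0 of each. Of all 32851 promoters in the table, 21.6% held the CSL core in such a stretch, 14.0% the RUNX core and 66.2% the E-box. In the Cd44 stretch there were 2 matches to the CSL core and 0 to the others, and in the Cd5 stretch 1 to the CSL core and 2 to the E-box. A match describes letters in this window and is no measure of binding.

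**Figure D2:**
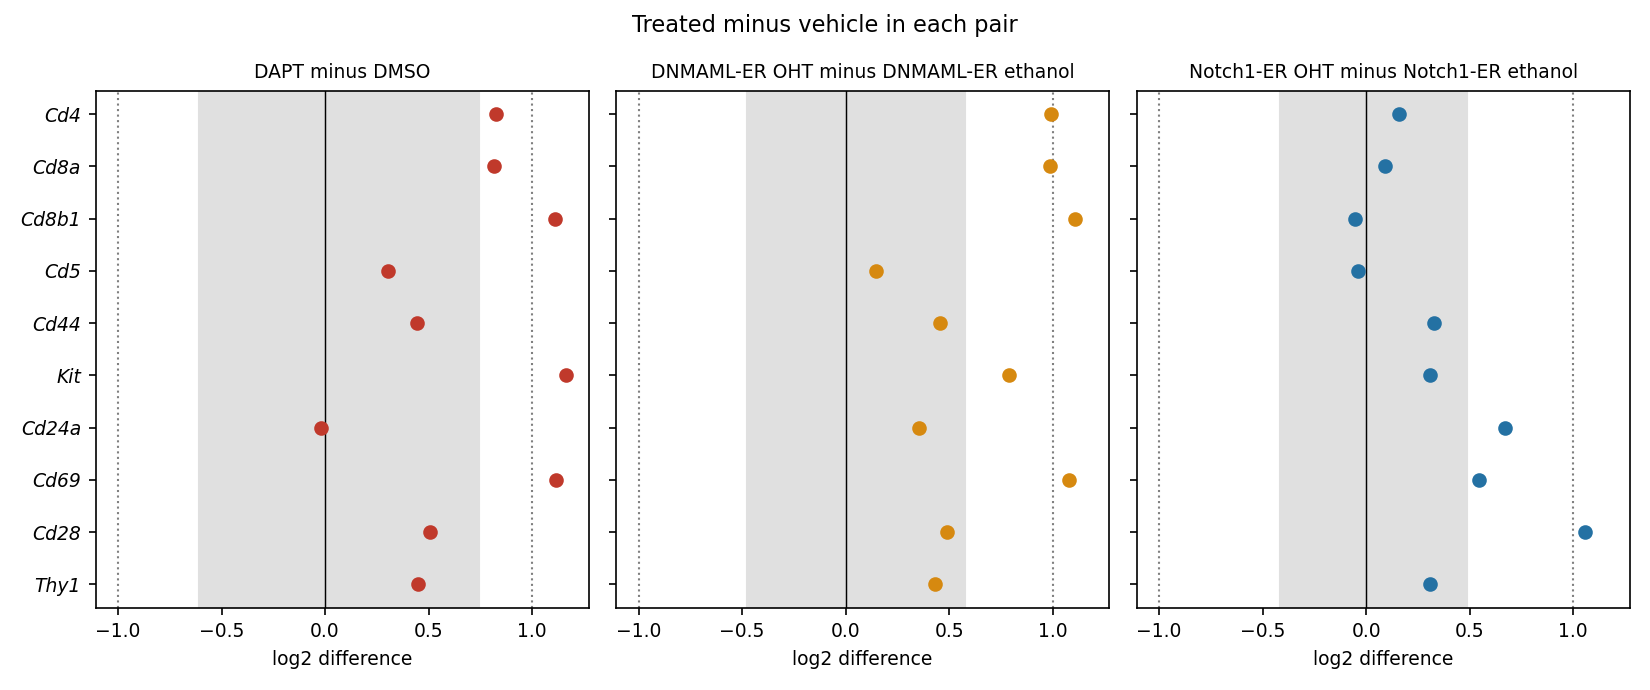
Log2 difference, treated minus vehicle, of each gene in the DAPT, DNMAML-ER and Notch1-ER pairs, with 1 array on each side. Grey bands hold the central 95% of the 12150 genes above the floor, and dotted lines mark 2-fold. Cd4, Cd8a, Cd8b1, Kit and Cd69 lie beyond the band in the DAPT and DNMAML-ER pairs, and Cd24a, Cd69 and Cd28 in the Notch1-ER pair.

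Kit and Cd44 mark early progenitors, and they differed from each other in how far they varied. Kit had a level of 9.67 with DAPT and 8.51 with DMSO in parental cells. It had 7.81 with OHT and 7.02 with ethanol in the DNMAML-ER line, and 7.21 with OHT and 6.90 with ethanol in the Notch1-ER line. Both parental arrays were above all 4 arrays of the fusion lines, and in each pair the treated array was the higher. The differences were 1.16 with DAPT, 0.79 with DNMAML-ER and 0.31 with Notch1-ER.

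Cd44, a hyaluronan receptor, had levels of 7.94 with DAPT and 7.50 with DMSO, 7.96 (OHT) and 7.51 (ethanol) in DNMAML-ER cells, and 7.80 (OHT) and 7.47 (ethanol) in Notch1-ER cells. The 3 treated arrays stood above the 3 vehicle arrays with no overlap. Cd44, Cd69 and Cd28 were the 3 of the 10 genes with this separation, and 5.15% of all genes had it. The differences of 0.44, 0.46 and 0.33 were each under 1.5-fold and lay within 0.13 of each other. In 0.601% of all genes, Cd44 included, the smallest of the 3 differences was at least as large as the 0.33 of Cd44.

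Cd69 and Cd5 are read-outs of antigen-receptor signalling in normal thymocytes. CD69 keeps cells in the thymus by antagonising the sphingosine phosphate receptor. Cd69 had a level of 6.60 with DAPT and 5.49 with DMSO. It had 6.56 with OHT and 5.48 with ethanol in the DNMAML-ER line, and 6.20 with OHT and 5.66 with ethanol in the Notch1-ER line. Again the treated arrays did not overlap with the vehicle arrays. The DMSO and DNMAML-ER ethanol levels were below the floor. The differences were 1.11, 1.08 and 0.54, of which the first 2 rest on those low vehicle levels. The Notch1-ER difference, with both levels above the floor, was under 1.5-fold.

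Cd5, a brake on receptor signalling, was low throughout. Its levels were 5.78 with DAPT and 5.48 with DMSO, 5.97 (OHT) and 5.82 (ethanol) in DNMAML-ER cells, and 5.74 (OHT) and 5.78 (ethanol) in Notch1-ER cells. They spanned 0.49 in all, and the DMSO level was below the floor. The differences of 0.31, 0.14 and -0.04 were all smaller than 1.5-fold. In each pair the Cd5 difference was smaller than that of Cd69.

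Cd28 had the largest Notch1-ER difference of the 10 genes. CD28 binds CD80 and CD86 and gives the second signal for T-cell activation. Cd28 had a level of 9.05 with OHT and 8.00 with ethanol in the Notch1-ER line. It had 8.58 with DAPT and 8.07 with DMSO, and 8.30 with OHT and 7.81 with ethanol in the DNMAML-ER line. The Notch1-ER OHT array was the highest of the 6, and the 3 treated arrays were above the 3 vehicle arrays. The difference was 1.05 with Notch1-ER, where 39 of the 12150 genes, Cd28 included, were at least as much higher. It was 0.51 with DAPT and 0.49 with DNMAML-ER, both under 1.5-fold.

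Cd24a, which encodes heat-stable antigen, also had its highest level on the Notch1-ER OHT array. Its level was 12.08 with OHT and 11.41 with ethanol in that line, 11.37 with DAPT and 11.39 with DMSO, and 11.52 with OHT and 11.17 with ethanol in the DNMAML-ER line. The 5 arrays other than Notch1-ER OHT lay between 11.17 and 11.52. The difference was 0.67 with Notch1-ER, 0.35 with DNMAML-ER and -0.02 with DAPT, and after centring each array on its median the DAPT difference was 0.10.

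Thy1, a glycolipid-anchored protein of T-lineage cells, had levels of 11.70 with DAPT and 11.25 with DMSO, 11.38 (OHT) and 10.95 (ethanol) in DNMAML-ER cells, and 11.14 (OHT) and 10.84 (ethanol) in Notch1-ER cells. Its differences of 0.45, 0.43 and 0.31 resembled those of Cd44 in size. The treated array was the higher in every pair, but levels overlapped between pairs because the DMSO level exceeded that of Notch1-ER with OHT.

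The treated array was the higher in all 3 pairs for 7 of the 10 genes, that is, Cd4, Cd8a, Cd44, Kit, Cd69, Cd28 and Thy1. Of all genes above the floor, 18.3% had this pattern at any size. For these 7 genes the Notch1-ER pair therefore lay on the same side as the inhibitors and not on the opposite one. For Cd8a and Cd4 its differences were small, at 0.09 and 0.16. In that pair 62.5% and 41.0% of all genes differed at least as far from 0. Treatment in both fusion lines was with OHT, and what OHT does in cells without a fusion was not tested.

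**Figure D3:**
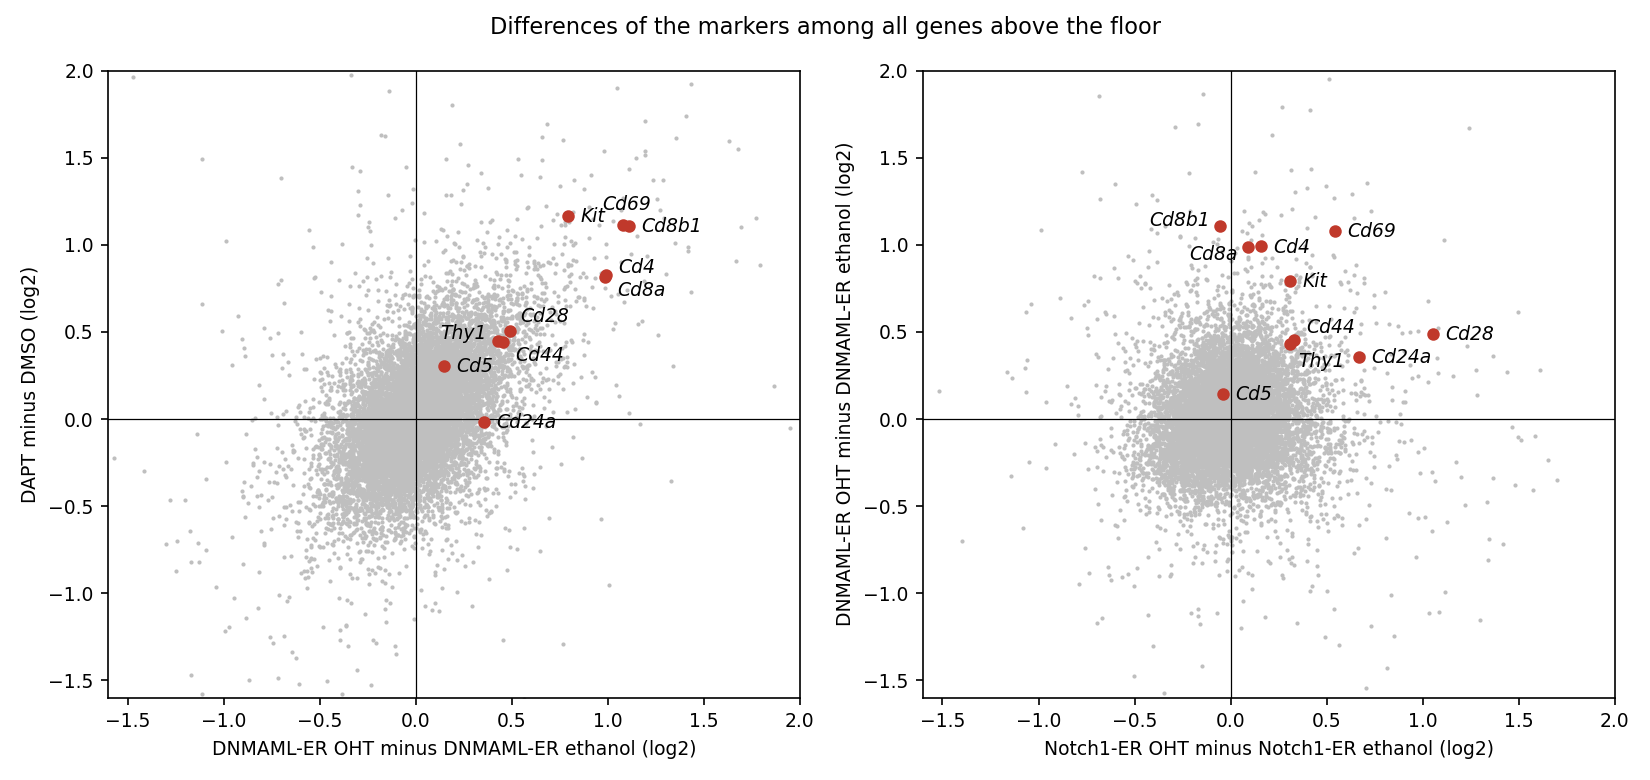
Log2 differences of the 10 genes (red) among all 12150 genes above the floor (grey), with DAPT against DNMAML-ER on the left and DNMAML-ER against Notch1-ER on the right. Axes leave out 33 and 20 grey points. Cd8b1, Cd8a and Cd4 lie near 1 with DNMAML-ER and near 0 with Notch1-ER, and Cd28 and Cd24a are displaced towards Notch1-ER.

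The OHT pairs share agent, concentration and time and differ in the fusion, so the OHT difference was compared between the lines. Of the 10 genes, the coreceptors had the largest excess in the DNMAML-ER line. The difference there minus that in the Notch1-ER line was 1.16 for Cd8b1, 0.90 for Cd8a and 0.83 for Cd4. These were the 3 of the 10 genes with an excess of 1.5-fold or more, where 3.49% of all genes had one. The excess was 0.53 for Cd69 and 0.48 for Kit, and for Cd44 and Thy1 it was 0.13 and 0.12. It was negative for Cd28 (-0.56) and Cd24a (-0.31), which were higher with Notch1-ER. With 1 pair per line these excesses have no error and were not tested.

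The DAPT and DNMAML-ER differences share no array and can be set side by side. DAPT minus DNMAML-ER was 0.00 for Cd8b1, 0.02 for Cd28, 0.02 for Thy1 and -0.01 for Cd44. It was -0.17 for both Cd4 and Cd8a and 0.16 for Cd5. The widest gaps were 0.37 for Kit, which was higher with DAPT, and -0.37 for Cd24a. Over all genes this gap had a standard deviation of 0.32, and 17.6% of genes had one at least as wide as that of Kit.

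Levels also differed between the vehicle arrays of the lines, and for Kit by more than within any pair. The Kit difference was -1.49 for DNMAML-ER ethanol minus DMSO, and Kit was the only gene of the 10 at least 2-fold lower in this comparison, as 0.988% of all genes were. For Notch1-ER ethanol minus DMSO it was -1.61, again the only one of the 10 that was 2-fold lower, where 0.634% of all genes were. These vehicle arrays differ in construct, selection, vehicle and time, which cannot be told apart, and both comparisons share the DMSO array. Cd8a and Cd8b1 were higher on the ethanol arrays, Cd8a by 0.42 with DNMAML-ER and 0.26 with Notch1-ER, and Cd8b1 by 0.53 and 0.40. Cd4 differed by -0.10 and -0.19.

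Between the ethanol arrays of the 2 fusion lines, which share vehicle and time, none of the 10 genes differed 1.5-fold, as 1.03% of all genes did. The differences, Notch1-ER minus DNMAML-ER, ran from -0.16 for Cd8a to 0.24 for Cd24a. The 5 genes 1.5-fold higher under both inhibitors differed between these arrays by 0.18 or less in size. They were picked by a 1.5-fold difference in the DNMAML-ER pair, among others, and that pair shares the DNMAML-ER ethanol array. No contrast with the size of that difference is therefore drawn. This comparison is the closest these arrays come to a repeat, and it is no replicate error because the lines differ.

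**Figure D4:**
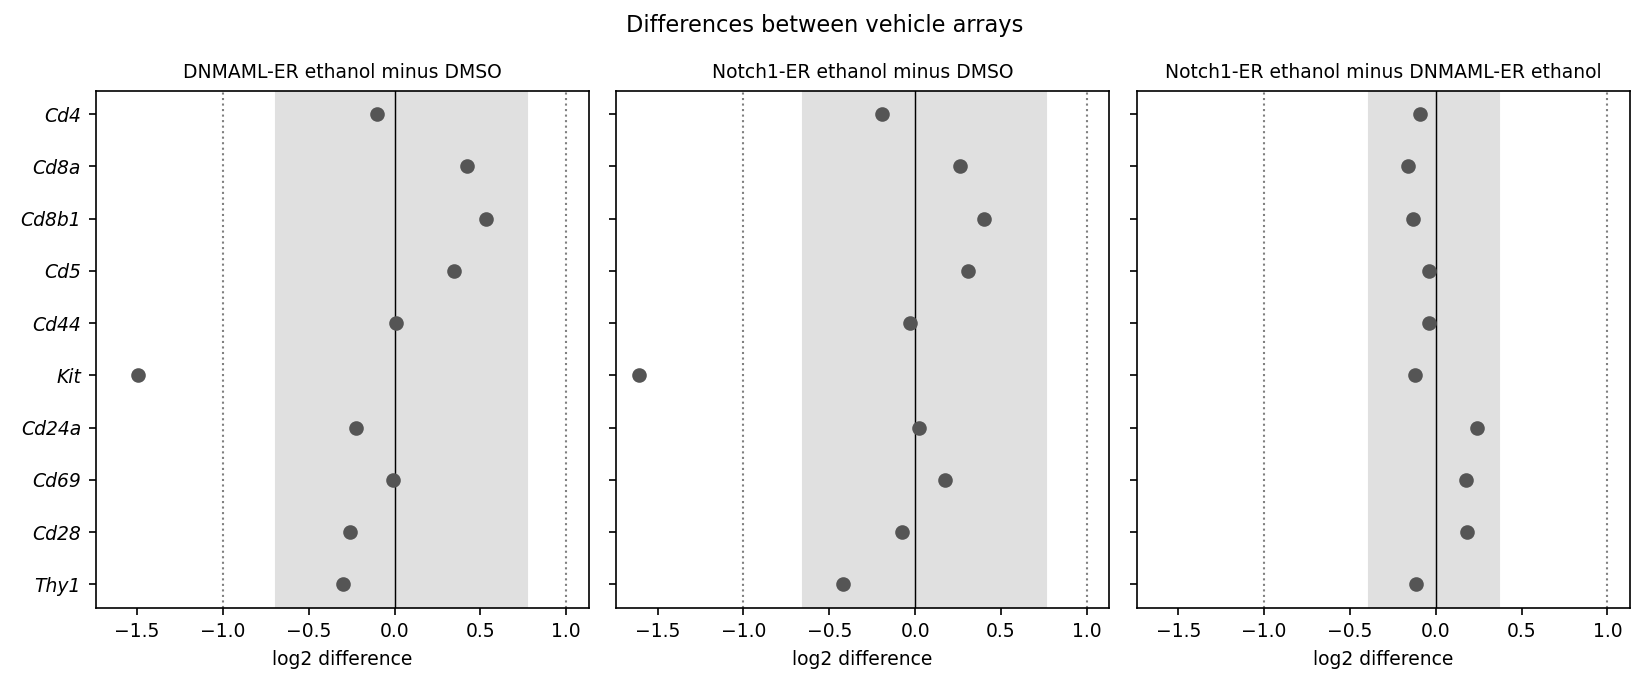
Log2 differences of the 10 genes between vehicle arrays, with 1 array on each side: DNMAML-ER ethanol minus DMSO, Notch1-ER ethanol minus DMSO, and Notch1-ER ethanol minus DNMAML-ER ethanol. Grey bands hold the central 95% of the 12150 genes above the floor and dotted lines mark 2-fold. Kit, at -1.49 and -1.61 against DMSO, is the only gene outside a band.

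The test over all 6 arrays asked whether the 3 perturbations move a gene together with Notch activity. Higher or lower Notch activity was assigned within each pair from the treatment and was not measured. The arrays assigned higher activity were Notch1-ER with OHT, DMSO and DNMAML-ER with ethanol. Those assigned lower activity were Notch1-ER with ethanol, DAPT and DNMAML-ER with OHT. The 2 sets were compared in limma, with the pair as a block and 2 residual degrees of freedom. At an adjusted p of 0.05 limma called 0 of the 10 genes and 0.0% of all genes. At an unadjusted p of 0.05, 3 of the 10 (Cd4, Cd8a and Cd8b1) and 1026 of all 12150 genes passed in limma. The nearest was Cd8b1, with a difference of -0.76 ± 0.21 (moderated SE, 3 pairs) and an adjusted p of 0.46 in limma. The 3 pairs are unlike perturbations with 1 array per condition, so this SE and p measure no spread between replicates. Cd8b1 was lower on the array assigned higher Notch activity in all 3 pairs, though with Notch1-ER only by the small margin given above.

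This outcome rested on the Notch1-ER pair. Without it, limma called 8 of the 10 genes at an adjusted p of 0.05, all but Cd5 and Cd24a, where it called 6.4% of all genes. The Notch-low arrays are then both treated arrays, and the fit has 1 residual degree of freedom. Its moderated SE draws on the variance of all genes, and the 2 pairs differ in agent, line and time. The SE and p of this fit therefore measure no spread between replicates. Cd8b1 was higher with the inhibitors by 1.11 ± 0.10 (moderated SE, 2 pairs; adjusted p = 6.1e-04 in limma) and Cd69, which was below the floor on both vehicle arrays of this fit, by 1.10 ± 0.14 (adjusted p = 0.0033 in limma). The values were 0.98 ± 0.12 for Kit (adjusted p = 0.0022 in limma), 0.91 ± 0.10 for Cd4 (0.0016) and 0.90 ± 0.10 for Cd8a (0.0018). Cd28, Cd44 and Thy1 passed with smaller differences of 0.50, 0.45 and 0.44, and adjusted p of 0.025, 0.042 and 0.037 in limma. In that fit lower Notch activity and any other effect of being treated cannot be told apart.

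Likeness of pattern was measured over the 6 arrays as the distance between log2 levels after subtracting each gene's mean. It was taken for the 6 genes whose levels spanned 1 or more, namely Cd4, Cd8a, Cd8b1, Kit, Cd69 and Cd28. The gene nearest to Cd8b1 among the 12149 others was Cd8a, at a distance of 0.27, and Cd8b1 was the third nearest to Cd8a. Cd4 was 47th from Cd8a, 22nd from Cd8b1 and 36th from Cd69. Counted from Cd4 the places were lower, with Cd8a 170th, Cd69 203rd and Cd8b1 248th, so many unlisted genes lay closer to Cd4. From Cd28 the nearest gene of the list was Cd24a, in place 20. Kit lay far from all of these, with Thy1 closest in place 691. For Cd4, Cd8a, Kit, Cd69 and Cd28 the 2 nearest genes overall were not on the list and carry no symbol in the table.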

How the data were processed

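The 6 arrays were hybridised with biotin-labelled total RNA. The deposited values are log2 expression values that the authors made with RMA, per the submitters' processing notes. RMA corrects background, sets the arrays' distributions alike and summarises probes, so that a shift in the RNA content of all cells would not show. The array model, annotation release and build were not stated in the labels or the file. The labels and the design text differ on the hydroxyl position of the tamoxifen metabolite, called OHT here.

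Differences were computed from the deposited log2 values, and genes had to reach the median of the mean levels (5.54) on at least 1 array. Size thresholds of 2-fold and 1.5-fold stood in for tests. The shared test used limma 3.58.1 in R 4.3.3 (two-sided, lmFit and trended eBayes, Benjamini-Hochberg adjustment over 12150 genes) and was tested on simulated data. Pattern neighbours were the 2 nearest genes for genes spanning 1 or more. The genes and lists were chosen with earlier results of these data known. Lists of other stage, regulator, neighbour, activation, Notch-target and cell-type genes had been set by symbol and were not analysed here, since IDs carry no symbols. Promoter sequences are RefSeq's (GRCm38.p6).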

Additional observations from a re-analysis of the deposited data

Results flagged for a closer look

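OHT minus ethanol had opposite signs in the 2 fusion lines for Cd8b1 and Cd5. Cd8b1 was higher with OHT by 1.11 in the DNMAML-ER line, and its difference was -0.055 in the Notch1-ER line (log2). The Notch1-ER value was very small, and 76.4% of all genes differed at least as far in that pair. It was -0.0083 after a second quantile normalization and -0.0012 after cyclic loess, so Cd8b1 was not shown to reverse. How many of all genes had opposite signs was not computed. For Cd5 the differences were 0.14 and -0.039, both small and at levels near the floor. With a single pair of arrays in each line, this contrast between lines was not tested.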

How the results depend on the processing

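A second quantile normalization, cyclic loess and median centring moved none of the 30 differences of the 10 genes by more than 0.12, and the only sign to change was that of Cd24a with DAPT under median centring. Median centring shifted the median of all genes in the DAPT pair by 0.12. It also brought Cd4 and Cd8a past 2-fold with DNMAML-ER, for a count of 4. With both arrays of a pair required at the floor or above, an alternative chosen after seeing the data, the 2-fold count with DNMAML-ER was 1, without Cd69. At 1.5-fold, 5, 5 and 2 of the 10 genes were higher for DAPT, DNMAML-ER and Notch1-ER. Of all genes, 622, 293 and 183 were higher by that size, and 972, 453 and 278 were higher or lower. Without the floor 101 of 22414 genes differed 2-fold either way with Notch1-ER, against 64 of 12150 with it. The count also rose from 198 to 276 with DAPT and from 96 to 140 with DNMAML-ER. The count of 5 genes 1.5-fold higher under both inhibitors held in all 3 normalizations, an alternative chosen after seeing the data. In limma the count of all genes was 2 with the quantile normalization, 1 without the floor and 1 without the trend, and the count of the 10 genes was 0 in each. Without the pair block limma called 0 of the 10 genes. Leaving out each pair in turn gave 0 to 8 of the 10 and 0 to 778 of all genes, with the most calls when Notch1-ER was the pair dropped; the cause was not tested. The limma difference of Cd28 was -0.051 with median centring and -0.50 to 0.28 when a pair was left out, and that of Cd24a -0.17 to 0.34. One array per condition limits every value, and levels near the floor limit Cd5 and Cd69.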
